A study of Mus musculus with 15 samples.

Results

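Potassium channel genes were taken as the rows of a deposited RNA-seq count table whose symbol begins with Kcn and a further lower-case letter and that held at least 150 counts over 15 libraries. Of 24498 genes in the table, 98 had such a symbol and 72 met the minimum: 57 pore-forming subunits, 11 auxiliary subunits and 4 other transcripts. All 72 entered the test across genes. Kcnk9, with 161 counts, was the member with the fewest and Kcnh8, with 134, the nearest row left out.

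The cells were primary mouse hippocampal neurons obtained plated from a core facility, kept in neurobasal medium with GlutaMAX and B27 and differentiated for 7 days. They then received 5 mM acetate or medium as vehicle for 24 h, each with 20 µM of an inhibitor of ACSS2, the enzyme that turns acetate into acetyl-CoA in the cytosol and nucleus, or with its solvent DMSO. The 4 groups are called DMSO vehicle (n = 4), DMSO acetate (n = 4), inhibitor vehicle (n = 3) and inhibitor acetate (n = 4); the design addresses how neurons exposed to acetate, a product of alcohol breakdown, change their transcripts with ACSS2 active or inhibited. The sources used here do not give strain, age or pooling of animals. Nor do they say whether replicates were separate cultures or animals, and the p-values therefore measure only the spread between these libraries, which may be technical.

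Libraries held 19688231 to 39234799 gene counts, and 15075 genes were tested. Levels are given in CPM, counts scaled to the size and composition of each library. Every one of 16 pan-neuronal markers was detected in every library, with summed levels of 6856 to 16136 CPM. Markers of other cells were present too, and most were lower with acetate: without inhibitor 12 of 12 tested microglia markers, 7 of 11 astrocyte markers, 8 of 10 oligodendrocyte markers, 6 of 9 vessel markers and 7 of 8 meningeal markers were lowered, and with inhibitor 12, 5, 5, 6 and 6. A single vessel marker rose, without inhibitor, and summed oligodendrocyte markers did not fall (285 to 879 CPM in DMSO vehicle, 706 to 991 in DMSO acetate). Summed microglia markers in the DMSO groups ran from 170 to 778 CPM with vehicle and from 54.6 to 78.2 with acetate, and in the inhibitor groups from 43.0 to 654 and from 47.1 to 92.9; none was at 0 in all libraries of a group. A pair of vehicle libraries stood apart: the mean log2 CPM of all non-neuronal markers was 3.54 in DMSO vehicle 1 against 4.71 to 4.93 in the other 3, and 2.14 in inhibitor vehicle 2 against 4.40 and 4.71, where the acetate libraries had 2.13 to 2.47. The value without both is given beside the results that rest on either. Both were picked from these data for marker levels nearer those of the acetate libraries. Leaving them out can therefore widen the acetate contrasts and narrow the spread, and calls gained that way are not independent support. It also takes 1 of the 3 libraries from inhibitor vehicle.

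Potassium channels let potassium leave the cell along its gradient and so set the resting potential, end the action potential and space the next. Voltage-gated Kv channels open on depolarization, Kcnq channels carry the M current that acetylcholine shuts, inward rectifiers of the Kcnj genes and tandem-pore Kcnk leak channels hold the membrane near rest, and calcium- or sodium-activated channels follow activity. Auxiliary subunits bind the pore proteins and change their traffic or gating. In hippocampal neurons these channels govern spike width, burst firing and the reach of dendritic signals.

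A short stretch of the pore loop, the selectivity filter, is what makes a subunit a potassium channel, and the coding sequence of that stretch is shown here for the members on which the acetate results turn, to show what the subfamilies share. A search of coding sequences in GENCODE M21 (GRCm38, the assembly also called mm10) looked for 5 successive codons: threonine or serine, then valine, isoleucine, leucine or threonine, then glycine, then tyrosine, phenylalanine or leucine, then glycine. Each line gives the strand of the gene, 5′ to 3′, as 60 bases with the 15 filter bases in capitals.
Kcna1: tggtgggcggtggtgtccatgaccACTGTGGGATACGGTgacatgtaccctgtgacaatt
Kcng1: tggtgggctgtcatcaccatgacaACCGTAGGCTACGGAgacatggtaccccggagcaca
Kcnh3: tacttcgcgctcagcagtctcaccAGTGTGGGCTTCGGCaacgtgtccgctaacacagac
Kcnj2: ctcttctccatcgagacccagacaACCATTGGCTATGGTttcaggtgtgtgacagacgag
Kcnj4: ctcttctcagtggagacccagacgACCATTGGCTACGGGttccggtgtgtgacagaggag
Kcnk4, first filter: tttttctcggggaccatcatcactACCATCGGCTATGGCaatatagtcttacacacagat
Kcnk4, second filter: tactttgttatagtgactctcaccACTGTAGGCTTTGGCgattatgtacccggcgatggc
Kcnn1: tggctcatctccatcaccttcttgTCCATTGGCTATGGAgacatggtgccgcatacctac
The filter bases lie in coding exons at chr6:126642228-126642242 (minus strand), chr2:168262641-168262655 (minus), chr15:99232929-99232943 (plus), chr11:111072207-111072221 (plus) and chr15:79485367-79485381 (minus). For Kcnk4 they lie at chr19:6928147-6928288, a span that includes an intron, and chr19:6927631-6927645, and for Kcnn1 at chr8:70850657-70850671, all on the minus strand. The search matched 57 of 57 pore-forming members, 0 of 11 auxiliary members and 347 of 21782 coding genes (1.59%). Each of 10 Kcnk members held 2 matches, as tandem-pore subunits do, and each of the other 47 held exactly 1. The inward rectifiers Kcnj2 and Kcnj4 shared 52 of 60 bases over this window, whereas the Kv1 subunit Kcna1 and the leak channel Kcnk4 shared 28 at the first filter and 27 at the second. The Kcnh3 line and the second Kcnk4 line read phenylalanine where Kcna1 and the Kcnj genes read tyrosine, an exchange known for the Kcnh genes and for second filters of Kcnk genes.

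Per kilobase of exon, the members spanned a wide range in DMSO vehicle. The highest means per kilobase were those of Kcne1l, an X-linked single-pass subunit that GENCODE M21 names Kcne5 (46.1 CPM per kilobase), the calcium sensor Kcnip3 (36.1), the leak channel Kcnk1 (34.003), the inward rectifier Kcnj4 (33.7) and the Kv beta subunit Kcnab2 (30.2). The lowest were Kcnh7 (0.0381) and the acid-sensitive leak channel Kcnk9 (0.0548). Within Kv1, Kcna1 (21.4) and Kcna6 (15.4) stood above Kcna2 (3.74), Kcna4 (3.22) and Kcna5 (0.408). The plot of level per exon length shows the 3 Kv4 members close together and the Kcnh and Kcnk members spread widest. Exon lengths are those of GENCODE M21, since the sources used here do not name the annotation behind the counts.

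**Figure D1:**
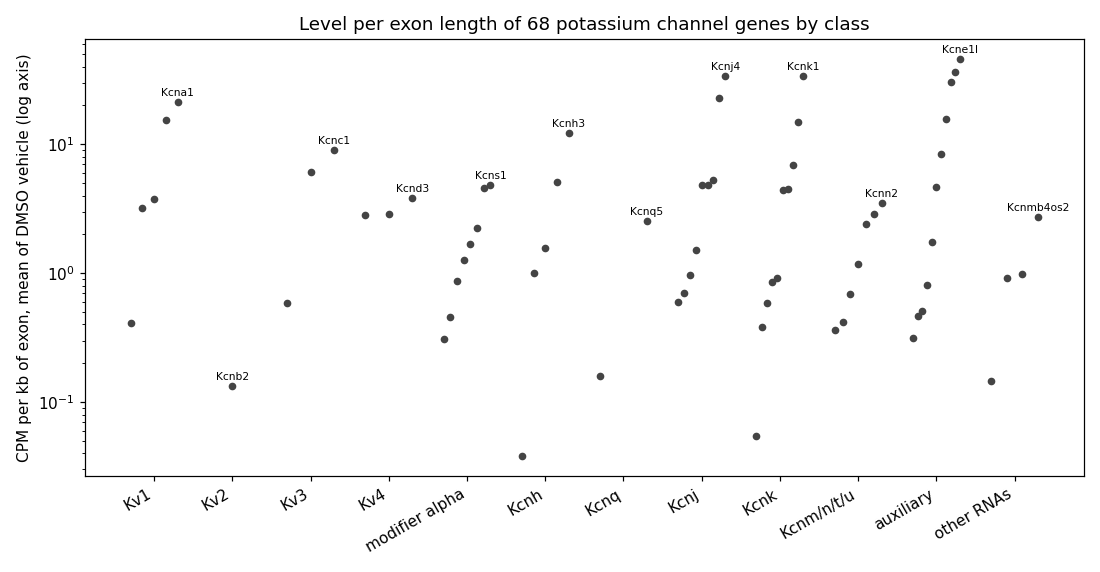
Mean level in DMSO vehicle (4 libraries) of 68 potassium channel genes by class, as CPM per kilobase of exon on a log axis, 1 point per gene, with the highest gene plotted in each class named. Kcne1l at 46.1, Kcnip3 at 36.1 and Kcnk1 at 34.003 lie at the top and Kcnh7 at 0.0381 at the bottom.

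With acetate and no inhibitor, 28 of 72 members rose and 12 fell by the quasi-likelihood test of edgeR, with p-values adjusted by the Benjamini-Hochberg method over all genes tested (threshold 0.05), against 2 and 41 on a scaling by neuronal markers described further on. Over all 15075 genes the shares called were 23.7% raised and 27.5% lowered. The members' median log2 fold, acetate over vehicle, was 0.32, beside -0.034 for all genes. With acetate in the presence of the inhibitor 24 rose and 9 fell, where 14.5% and 20.6% of all genes were called, and the medians were 0.24 and -0.030. The members raised in both arms numbered 20, which is 71.4% of those raised without inhibitor and 83.3% of those raised with it. Lowered in both were 7 (58.3% and 77.8%). The same overlap was not counted over all genes, so these shares cannot be called particular to the members. In both arms Kcng1 and Kcnn1 had the largest rises and Kcnk6 and Kcnj2 the deepest falls. In bulk RNA, fewer cells of a type and less RNA per cell cannot be told apart.

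**Figure D2:**
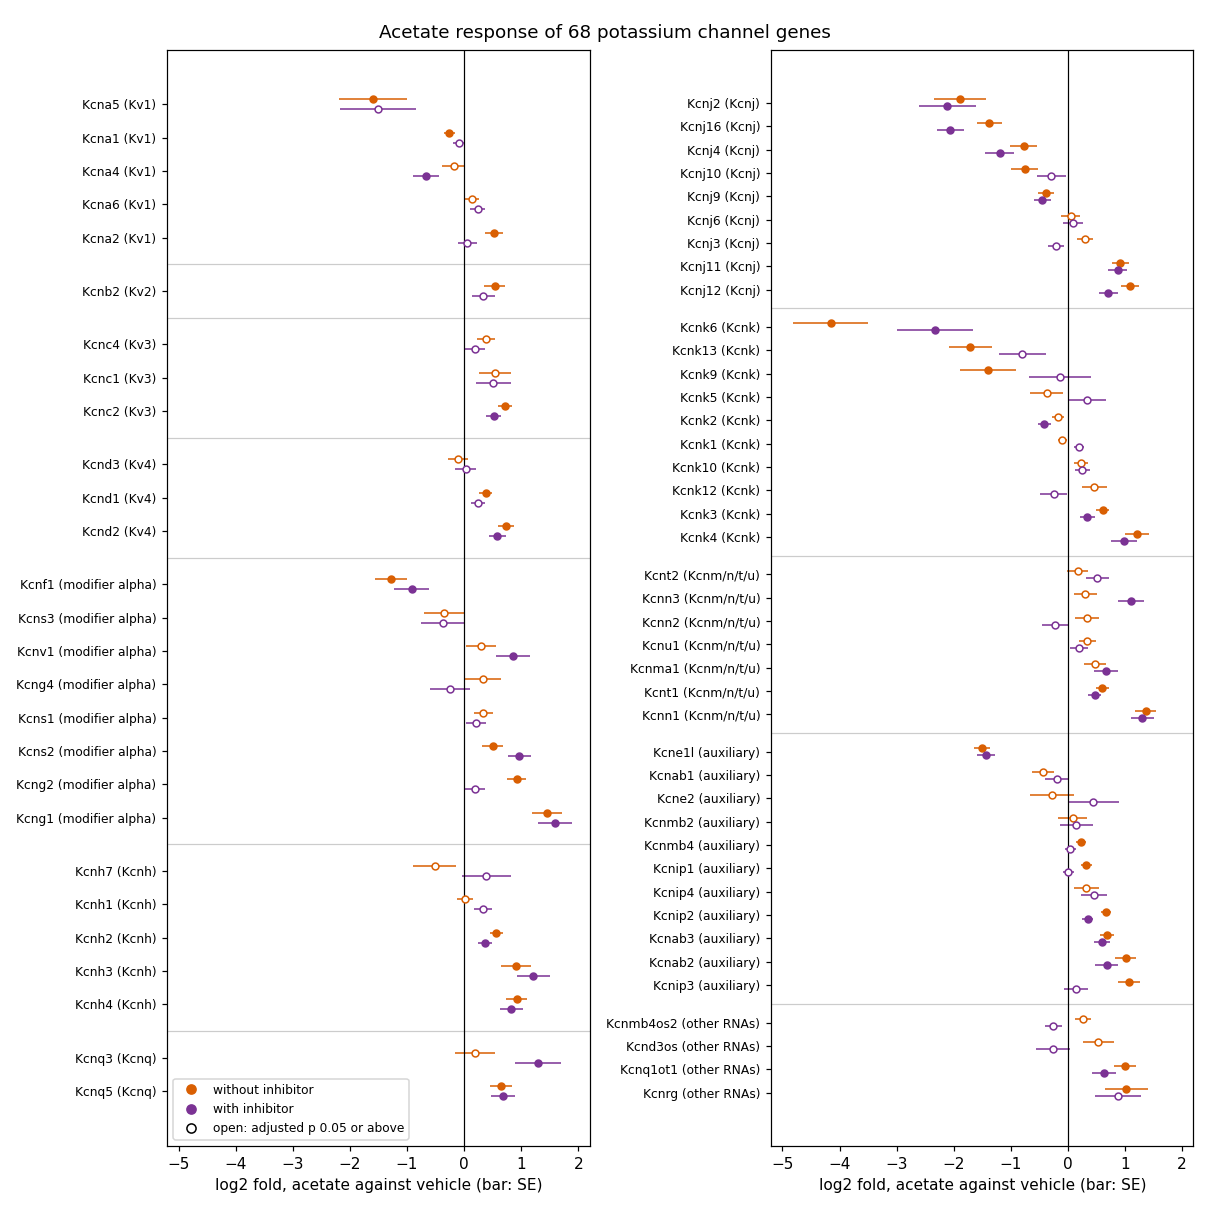
Log2 fold of acetate over vehicle for 68 potassium channel genes by class, without inhibitor (orange, 4 against 4 libraries) and with inhibitor (purple, 4 against 3). Points are edgeR estimates, bars SE, and open points had an adjusted p of 0.05 or above; Kcng1 and Kcnn1 lie furthest right without inhibitor and Kcnk6 furthest left.

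These counts moved with the reference chosen. Scaled on the pan-neuronal markers, 2 members were raised and 41 lowered without inhibitor (background 0.922% and 87.7%), and 4 and 27 with it (0.962% and 67.4%). That scaling shifted the all-gene median log2 fold to -0.93 and -0.61 and the members' medians to -0.58 and -0.36, and the members' medians lay above those of all genes there as well. With the non-neuronal marker score as a covariate, 13 were raised and 5 lowered without inhibitor (background 7.98% and 6.46%) and 15 and 4 with it (5.29% and 6.85%); 9 of the 28 rises and 3 of the 12 falls passed there too without inhibitor, and 12 of 24 and 2 of 9 with it. The score averaged lower with acetate and varied within groups mainly in vehicle (SD 0.66 and 1.40, against 0.036 and 0.15 in the acetate groups). The covariate fits therefore rest largely on the uneven vehicle libraries and cannot separate composition from acetate. Without both uneven vehicle libraries the counts were 37 and 10 (background 28.0% and 31.6%), and 30 and 13 (22.5% and 26.7%). There 28 of the 28 rises and 9 of the 12 falls without inhibitor were called again, all but Kcna1, Kcnj9 and Kcnk9, and with inhibitor 23 of 24, all but Kcnk3, and 9 of 9. Of single libraries, leaving out inhibitor vehicle 1 or 3 took the falls with inhibitor from 9 to 4 or 5. Over all genes the falls went from 3103 to 1877 or 1934. In DMSO vehicle 1 the level was the highest of its group for 12 of the 28 raised members and the lowest for 5 of the 12 lowered (over all called genes 55.4% and 61.6%), and in inhibitor vehicle 2 for 15 of 24 and 8 of 9 (69.7% and 77.6%). Passing in the same direction under every alternative setting tried were Kcnn1, Kcne1l and Kcnj16 without inhibitor, and these 3 with Kcng1, Kcnh3 and Kcnn3 with it. For falls the neuronal-marker scaling was a weak check, since it lowered most genes. It kept 12 of 12 falls without inhibitor and 9 of 9 with it.

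Kv1 channels, built from the Kcna subunits, sit at axon initial segments and terminals, and their members did not move together. Without inhibitor 1 of 5 rose and 2 fell (23.7% and 27.5% of all genes). Their median log2 fold was -0.18 (-1.03 scaled on neuronal markers). With inhibitor 0 rose and 1 fell (14.5% and 20.6% of all genes). Kcna1 (chr6:126640397-126646384), which limits axonal excitability, stood at 120.1, 94.7, 97.6 and 97.2 CPM in DMSO vehicle 1 to 4 and at 75.5, 84.8, 88.4 and 93.5 in DMSO acetate. Each acetate library lay below each vehicle library, and vehicle 1 was high. Kcna1 fell by 0.26 (SE 0.10, edgeR adjusted p = 0.0329); the call was lost in the fits that left out DMSO vehicle 1 or DMSO acetate 1 or 2 (log2 fold -0.26 to -0.19, adjusted p 0.0674 to 0.102), and without both uneven libraries the value was -0.17 (adjusted p = 0.0628). With inhibitor its log2 fold was -0.085 (SE 0.10, edgeR adjusted p = 0.553).

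Kcna2, the common partner of Kcna1 in axonal channels, went the other way. Its levels were 48.9, 43.6, 43.7 and 42.03 CPM in DMSO vehicle against 56.4, 64.5, 64.6 and 72.01 in DMSO acetate, with no overlap. It rose by 0.53 (SE 0.16, edgeR adjusted p = 0.0117), but stood at -0.35 scaled on neuronal markers (adjusted p = 0.0348) and -0.13 with the covariate (0.541). With inhibitor the log2 fold was 0.055 (SE 0.17, edgeR adjusted p = 0.826). The vehicle group was wide, 44.1, 80.7 and 43.6 CPM, with library 2 high. Without both uneven libraries the fold with inhibitor was 0.41 (edgeR adjusted p = 0.00156). Scaled on neuronal markers it was -0.47 (edgeR adjusted p = 0.0161), and with the covariate -0.35 (0.0479). Kcna4, a fast-inactivating subunit, did not pass without inhibitor at -0.18 (SE 0.21, edgeR adjusted p = 0.474). With inhibitor it fell by 0.67 (SE 0.23, edgeR adjusted p = 0.0336), a call lost in the fits that left out inhibitor vehicle 1 or 3 or inhibitor acetate 1, 2 or 3 (log2 fold -0.66 to -0.51, adjusted p 0.0651 to 0.165). Kcna6 passed in neither arm (0.13 and 0.24), and shares 2355 exon bases with the opposite-strand transcript Gm26673. The weakly expressed Kcna5 (0.226 to 1.62 CPM in DMSO vehicle) fell by 1.597 (SE 0.60, edgeR adjusted p = 0.0375); its call was lost in the fits that left out DMSO vehicle 2, 3 or 4 or DMSO acetate 1, 2 or 4 (log2 fold -1.52 to -1.42, adjusted p 0.0787 to 0.096) and the value was 1.43 with the covariate.

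Kv2 channels carry the delayed rectifier of the cell body, and the silent, or modifier, subunits of the Kcnf, Kcng, Kcns and Kcnv genes form no channel alone but join Kv2 subunits and alter their gating. Without inhibitor the Kv2 gene Kcnb2 rose by 0.54 (SE 0.18, edgeR adjusted p = 0.0235), from 2.41, 1.96, 1.53 and 2.22 CPM in DMSO vehicle to 2.75, 3.28, 2.81 and 2.97 in DMSO acetate. The call was lost in the fits that left out DMSO vehicle 2 or 3 or DMSO acetate 2 (log2 fold 0.42 to 0.51, adjusted p 0.0572 to 0.079). With inhibitor Kcnb2 did not pass at 0.34 (SE 0.20, edgeR adjusted p = 0.199). On the neuronal-marker scaling its values were -0.34 without inhibitor and -0.22 with it.

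The silent subunits held the largest rise of any member and a fall of similar size. Of 8, 3 rose and 1 fell in each arm. Over all genes 23.7% and 27.5% did without inhibitor and 14.5% and 20.6% with it. Medians of the 8 were 0.33 and 0.20 (-0.52 and -0.38 scaled on neuronal markers). Kcng1 (chr2:168260117-168281736) stood at 13.6, 5.44, 5.89 and 5.59 CPM in DMSO vehicle against 24.4, 20.3, 20.7 and 17.6 in DMSO acetate. Vehicle 1 stood far above its group's other libraries and still below each acetate library. Kcng1 rose by 1.44 (SE 0.26, edgeR adjusted p = 5.27e-04), and by 1.89 without both uneven libraries, which gave 1.93 with inhibitor. In the inhibitor groups it stood at 4.26, 7.84 and 4.46 and 16.6, 17.3, 15.7 and 16.8 CPM, again without overlap, and rose by 1.59 (SE 0.30, edgeR adjusted p = 0.00177). On the neuronal-marker scaling the rises were 0.64 (adjusted p = 0.00441) and 1.05 (7.07e-04); with the covariate the value without inhibitor was 0.44 (0.231) and with it 0.90 (0.0133).

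Kcnf1 moved against its relatives. It stood at 6.36, 13.5, 11.9 and 11.1 CPM in DMSO vehicle against 5.55, 4.11, 4.31 and 3.57 in DMSO acetate, with vehicle 1 nearest the acetate libraries. It fell by 1.28 (SE 0.28, edgeR adjusted p = 0.0019). With inhibitor it fell by 0.92 (SE 0.30, edgeR adjusted p = 0.0285), from 11.1, 4.15 and 12.2 to 4.83, 4.91, 4.64 and 4.95 CPM, where inhibitor vehicle 2 lay below each acetate library; that call was lost in the fits that left out inhibitor vehicle 1 or 3 or inhibitor acetate 1, 2, 3 or 4 (log2 fold -0.93 to -0.66, adjusted p 0.0536 to 0.159). Kcnf1 had, without both uneven libraries, -1.45 and -1.27 (adjusted p = 8.11e-07). The Kcnf1 values with the covariate were 0.12 and 0.17, neither past the threshold. Kcng2 rose without inhibitor by 0.92 (SE 0.16, edgeR adjusted p = 4.23e-04) and had 0.19 with it (SE 0.17). Kcns2 rose by 0.96 with inhibitor (SE 0.20, edgeR adjusted p = 0.00292) and by 0.50 without (SE 0.18, edgeR adjusted p = 0.0325), the latter lost in the fits that left out DMSO vehicle 1 or 4 or DMSO acetate 1, 2 or 4 (log2 fold 0.31 to 0.52, adjusted p 0.0531 to 0.0788, with 0.31 without DMSO vehicle 1); without both uneven libraries it was 0.33 (adjusted p = 0.0434). Kcnv1 rose with inhibitor by 0.85 (SE 0.30, edgeR adjusted p = 0.0398), a call lost in the fits that left out DMSO acetate 2, 3 or 4 or inhibitor vehicle 1 or 2 or inhibitor acetate 1, 3 or 4 (log2 fold 0.67 to 0.85, adjusted p 0.0504 to 0.166); without both uneven libraries it was 0.78 (adjusted p = 0.00512), and 0.69 (adjusted p = 0.00189) without inhibitor. Without inhibitor Kcng2 had 0.036 scaled on neuronal markers (edgeR adjusted p = 0.834) and 0.73 with the covariate (0.0541). Kcns2 had -0.44 and 0.40 on that scaling, neither past the threshold. With the covariate Kcns2 had 0.59 (edgeR adjusted p = 0.207) and 1.02 (0.0129). Kcnv1 had -0.52 and 0.26 scaled on neuronal markers and -0.18 and 0.48 with the covariate, none past the threshold. Kcng4, Kcns1 and Kcns3 passed in neither arm, with log2 folds from -0.38 to 0.34.

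Kv3 channels let neurons fire fast, and Kv4 channels carry the A current of dendrites. Among the Kv3 genes Kcnc2 rose in both arms, by 0.71 (SE 0.12, edgeR adjusted p = 2.96e-04) and 0.51 (SE 0.13, edgeR adjusted p = 0.00805), with -0.19 and -0.055 scaled on neuronal markers. Kcnc1 stood at 148, 63.1, 65.6 and 63.6 CPM in DMSO vehicle, at 116, 112, 131 and 136 in DMSO acetate, 59.9, 129.7 and 67.2 in inhibitor vehicle and 137, 109, 141 and 101 in inhibitor acetate. DMSO vehicle 1 lay above the acetate libraries and inhibitor vehicle 2 among them, while the other vehicle libraries lay between 59.9 and 67.2. The log2 fold of Kcnc1 was 0.54 (SE 0.28, edgeR adjusted p = 0.117) and 0.51 (SE 0.30, edgeR adjusted p = 0.203). Without both uneven libraries it was 0.95 (adjusted p = 4.23e-07) and 0.94 (4.41e-06). Kcnc1 had, scaled on neuronal markers, -0.26 and 0.0024, and with the covariate -0.53 and -0.21. Kcnc4 did not pass at 0.38 and 0.19.

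Among the 3 Kv4 genes, Kcnd2 rose from 15.2, 15.7, 13.9 and 13.5 CPM in DMSO vehicle to 20.1, 21.7, 25.4 and 30.1 in DMSO acetate, without overlap, by 0.73 (SE 0.14, edgeR adjusted p = 8.14e-04). With inhibitor it rose by 0.58 (SE 0.15, edgeR adjusted p = 0.0105), a call lost without inhibitor vehicle 1 (log2 fold 0.43, adjusted p = 0.0614). Kcnd1 rose without inhibitor by 0.38 (SE 0.11, edgeR adjusted p = 0.01), and Kcnd3 passed in neither arm (-0.11 and 0.028). On the neuronal-marker scaling Kcnd2 had -0.15 and 0.022. The Kcnip genes encode calcium-binding partners of Kv4 channels, and 3 of 4 rose without inhibitor, where 23.7% of all genes did. Scaled on neuronal markers, though, Kcnip1, Kcnip2 and Kcnip3 had -0.58, -0.20 and 0.21. With the covariate they had 0.39, 0.48 and 0.21 (edgeR adjusted p = 0.0896, 0.0212 and 0.319). Kcnip3, which also acts as a transcriptional repressor, stood at 164, 114, 119 and 116 CPM in DMSO vehicle against 250.4, 262, 279 and 284 in DMSO acetate, with no overlap, and rose by 1.07 (SE 0.20, edgeR adjusted p = 6.13e-04). Kcnip2 rose by 0.67 (SE 0.089, edgeR adjusted p = 6.48e-05) and Kcnip1 by 0.32 (SE 0.091, edgeR adjusted p = 0.00882), while Kcnip4 had 0.32 (SE 0.21). With inhibitor 1 of 4 rose, where 14.5% of all genes did. That was Kcnip2, by 0.35 (SE 0.10, edgeR adjusted p = 0.0129), a call lost without inhibitor vehicle 3 (log2 fold 0.29, adjusted p = 0.0632).

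The Kcnh genes encode the ether-a-go-go family and the Kcnq genes the M channels. Of 5 Kcnh genes 3 rose and 0 fell in each arm, where 23.7% and 14.5% of all genes rose and 27.5% and 20.6% fell. Medians were 0.56 and 0.39 (-0.35 and -0.19 scaled on neuronal markers). Scaled that way 0 rose and 2 fell without inhibitor (0.922% and 87.7% of all genes), and 1 and 0 did with it (0.962% and 67.4%). With the covariate 1 rose without inhibitor and 3 with it (7.98% and 5.29% of all genes), and 0 fell (6.46% and 6.85%). Kcnh3 (chr15:99224861-99242817), a forebrain-enriched member, stood at 115, 45.04, 58.2 and 61.7 CPM in DMSO vehicle against 128, 139, 120.3 and 137 in DMSO acetate. Vehicle 1 was high but below each acetate library. It rose by 0.90 (SE 0.26, edgeR adjusted p = 0.0105), with -0.19 under the covariate and 1.26 without both uneven libraries. With inhibitor Kcnh3 went from 32.3, 66.8 and 28.8 to 100.03, 106, 92.3 and 96.4 CPM and rose by 1.21 (SE 0.30, edgeR adjusted p = 0.00668), and by 1.695 without both uneven libraries. The related Kcnh4 rose by 0.92 (SE 0.18, edgeR adjusted p = 8.42e-04) and 0.83 (SE 0.20, edgeR adjusted p = 0.00632). Scaled on neuronal markers Kcnh4 had 0.032 and 0.25 (edgeR adjusted p = 0.874 and 0.292). With the covariate it had 0.76 and 0.71 (edgeR adjusted p = 0.0849 and 0.0733), so both calls were lost either way. Kcnh2, the gene of the ERG channel, rose by 0.56 (SE 0.11, edgeR adjusted p = 0.00105) and 0.37 (SE 0.12, edgeR adjusted p = 0.0316), the latter lost in the fits that left out inhibitor vehicle 2 or 3 or inhibitor acetate 2 or 4 (log2 fold 0.31 to 0.35, adjusted p 0.069 to 0.0969) but 0.31 (adjusted p = 0.0424) without both uneven libraries. Kcnh1 and the faint Kcnh7 passed in neither arm.

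Among the Kcnq genes Kcnq5 rose by 0.65 (SE 0.19, edgeR adjusted p = 0.0112) and 0.68 (SE 0.21, edgeR adjusted p = 0.0223). Scaled on neuronal markers Kcnq5 had -0.19 (edgeR adjusted p = 0.2) and 0.14 (0.403), and with the covariate -0.10 (0.722) and 0.16 (0.502). The second Kcnq5 call was lost in the fits that left out inhibitor vehicle 1 or 3 or inhibitor acetate 4 (log2 fold 0.55 to 0.65, adjusted p 0.0502 to 0.107). Kcnq3 rose with inhibitor by 1.29 (SE 0.40, edgeR adjusted p = 0.0235), from 1.04, 1.91 and 0.719 to 3.83, 2.16, 3.199 and 2.6997 CPM, a call lost in the fits that left out inhibitor vehicle 1 or 3 or inhibitor acetate 1 (log2 fold 1.01 to 1.196, adjusted p 0.0605 to 0.106). The Kcnq3 value with inhibitor was 0.77 scaled on neuronal markers (edgeR adjusted p = 0.064) and 0.52 with the covariate (0.351). Without inhibitor Kcnq3 had 0.20 (SE 0.35, edgeR adjusted p = 0.658).

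The inward rectifiers held more falls than rises, though not with the covariate. Of 9 Kcnj genes 5 fell and 2 rose without inhibitor (27.5% and 23.7% of all genes). With it 4 fell and 2 rose (20.6% and 14.5%). The median log2 fold was -0.38 and -0.29 (-1.25 and -0.85 scaled on neuronal markers, 0.22 and -0.23 with the covariate). With the covariate 2 fell and 2 rose without inhibitor (6.46% and 7.98% of all genes). In the presence of the inhibitor 1 fell and 2 rose there (6.85% and 5.29%). Kcnj2 (chr11:111066164-111076821), whose filter is printed above, encodes a strong rectifier that sets the resting potential. It stood at 2.37, 6.94, 4.96 and 6.85 CPM in DMSO vehicle against 1.69, 1.002, 1.45 and 1.57 in DMSO acetate, with vehicle 1 lowest of its group. It fell by 1.89 (SE 0.45, edgeR adjusted p = 0.00321). In the inhibitor groups Kcnj2 stood at 6.91, 1.05 and 6.09 and 1.13, 1.38, 0.835 and 0.9899 CPM, with inhibitor vehicle 2 inside the acetate range, and fell by 2.11 (SE 0.49, edgeR adjusted p = 0.00554). Without both uneven libraries the values were -2.13 and -2.57, both past the threshold. With the non-neuronal covariate the values were 0.48 (adjusted p = 0.339) and -0.15 (0.782).

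Its close relative Kcnj4 stood at 64.5, 59.97, 83.3 and 81.99 CPM in DMSO vehicle against 42.96, 45.5, 40.7 and 40.4 in DMSO acetate, without overlap, and fell by 0.77 (SE 0.24, edgeR adjusted p = 0.0137). With inhibitor it fell by 1.19 (SE 0.26, edgeR adjusted p = 0.00358), from 92.2, 28.8 and 73.3 to 26.4, 29.5, 27.2 and 30.3 CPM, where inhibitor vehicle 2 lay among the acetate libraries; without both uneven libraries the second value was -1.54 (adjusted p = 3.29e-09). With the covariate the Kcnj4 values were 0.22 and -0.37, neither past the threshold. Kcnj10 and Kcnj16 encode partners known for potassium uptake by astrocytes. Kcnj16 stood at 3.05, 3.03, 2.502 and 2.45 CPM in DMSO vehicle against 1.03, 0.795, 1.17 and 1.297 in DMSO acetate, and at 2.69, 2.73 and 3.37 and 0.958, 0.7805, 0.556 and 0.495 in the inhibitor groups. The vehicle libraries were tight, the uneven ones included, and no acetate library reached them. Kcnj16 fell by 1.37 (SE 0.22, edgeR adjusted p = 1.87e-04) and 2.06 (SE 0.24, edgeR adjusted p = 1.07e-04); with the covariate the values were -1.35 and -2.04, both past the threshold. Kcnj10 stood at 191, 115, 96.3 and 95.3 CPM in DMSO vehicle against 68.04, 63.6, 87.2 and 76.8 in DMSO acetate and fell by 0.75 (SE 0.24, edgeR adjusted p = 0.0157), a call lost without DMSO vehicle 1 (log2 fold -0.48, adjusted p = 0.0531), and had -0.47 (adjusted p = 0.0305) without both uneven libraries. With inhibitor Kcnj10 had -0.29 (SE 0.26, edgeR adjusted p = 0.395). With the covariate its values were -1.19 (edgeR adjusted p = 0.0173) and -0.63 (0.16). DMSO vehicle 1, highest of its group for Kcnj10, had the group's lowest mean log2 CPM of astrocyte markers, 6.15 against 6.47 to 6.91. Summed astrocyte markers in the DMSO groups ran from 4269 to 12184 CPM with vehicle and from 3323 to 4144 with acetate, and in the inhibitor groups from 3986 to 13306 and from 2959 to 4415; of 11 markers Gjb6 alone was at 0 in any library. Their part in the Kcnj10 and Kcnj16 falls was not tested beyond the covariate.

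Kcnj3, Kcnj6 and Kcnj9 encode the neuronal rectifiers opened by G proteins downstream of GABA-B receptors. Kcnj9 stood at 26.8, 19.2, 21.3 and 22.7 CPM in DMSO vehicle against 19.4, 16.1, 17.4 and 16.002 in DMSO acetate. It fell by 0.38 (SE 0.14, edgeR adjusted p = 0.0344) and 0.45 (SE 0.15, edgeR adjusted p = 0.0332). The first call was lost in the fits that left out DMSO vehicle 1 or 4 or DMSO acetate 2, 3 or 4 (log2 fold -0.39 to -0.30, adjusted p 0.0561 to 0.0874) and the second in the fits that left out inhibitor vehicle 1 or 3 or inhibitor acetate 1 or 3 (log2 fold -0.47 to -0.29, adjusted p 0.0706 to 0.205, with -0.29 without inhibitor vehicle 1). Both values without the uneven libraries were -0.28 (adjusted p = 0.0524) and -0.57 (adjusted p = 0.00197). Kcnj3 (0.30 and -0.21) and Kcnj6 (0.046 and 0.094) passed in neither arm. Kcnj11, the pore of channels closed by ATP, rose from 17.8, 14.6, 19.3 and 19.8 CPM in DMSO vehicle to 37.2, 37.7, 29.1 and 30.4 in DMSO acetate, by 0.92 (SE 0.15, edgeR adjusted p = 2.68e-04), and by 0.87 with inhibitor (SE 0.16, edgeR adjusted p = 0.00184). Kcnj12, a further strong rectifier, rose by 1.09 (SE 0.16, edgeR adjusted p = 1.34e-04) and 0.71 (SE 0.17, edgeR adjusted p = 0.00691). Scaled on neuronal markers both stayed above 0, at 0.017 and 0.18 without inhibitor and 0.33 and 0.12 with it, past the threshold in neither arm.

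Of 10 genes of the tandem-pore leak channels, the Kcnk genes, 2 rose and 3 fell without inhibitor and 2 rose and 2 fell with it, shares near those of all genes (23.7% and 27.5%, and 14.5% and 20.6%), with medians of -0.13 and 0.031 (-1.03 and -0.55 scaled on neuronal markers). Kcnk4 (chr19:6923966-6934515), a channel opened by stretch and warmth whose 2 filters are printed above, stood at 5.27, 2.35, 3.85 and 3.75 CPM in DMSO vehicle against 9.24, 8.78, 8.15 and 9.14 in DMSO acetate. Inhibitor vehicle and inhibitor acetate held 3.26, 6.33 and 4.54 and 9.66, 8.63, 9.46 and 9.49 CPM, and neither pair of groups overlapped. Kcnk4 rose by 1.22 (SE 0.21, edgeR adjusted p = 3.77e-04) and 0.98 (SE 0.23, edgeR adjusted p = 0.00556); it shares 587 exon bases with Catsperz on the same strand, so reads of the pair may not be separable. Kcnk4 had, scaled on neuronal markers, 0.37 (adjusted p = 0.0615) and 0.44 (0.0562), and with the covariate 0.54 (0.141) and 0.52 (0.111), with every call lost. Kcnk3, an acid-sensitive channel, rose by 0.61 (SE 0.11, edgeR adjusted p = 6.49e-04) and 0.34 (SE 0.13, edgeR adjusted p = 0.0473), the latter lost in the fits that left out DMSO vehicle 3 or DMSO acetate 1, 3 or 4 or inhibitor vehicle 1, 2 or 3 or inhibitor acetate 1, 2 or 4 (log2 fold 0.27 to 0.38, adjusted p 0.0505 to 0.128) and without both uneven libraries (0.29, adjusted p = 0.0723).

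Kcnk6 had the deepest fall. Its libraries held 15, 57, 31 and 65 counts in DMSO vehicle and 4, 3, 1 and 1 in DMSO acetate, which scaled to 0.564, 1.86, 1.44 and 2.49 and 0.111, 0.104, 0.0468 and 0.0541 CPM. Every acetate library lay below every vehicle library. By summed counts (9 against 168) the acetate level was 5.36% of vehicle, with an exact 95% interval of 2.41% to 10.4% that covers counting error only. The fitted fall was 4.15 (SE 0.66, edgeR adjusted p = 2.05e-04), a value that depends on the prior count at so few counts. With inhibitor it fell by 2.32 (SE 0.66, edgeR adjusted p = 0.015) on 23, 3 and 38 against 2, 5, 3 and 5 counts, a level of 18.9% (exact interval 10.002% to 33.5%), and inhibitor vehicle 2 lay within the acetate libraries; the call was lost without inhibitor vehicle 1 (log2 fold -2.21, adjusted p = 0.0503) or inhibitor vehicle 3 (log2 fold -1.72, adjusted p = 0.1), and without both uneven libraries the value was -2.82 (adjusted p = 9.00e-06). Kcnk13, known from microglia, fell by 1.71 (SE 0.38, edgeR adjusted p = 0.00194) and had -0.80 with inhibitor (SE 0.41, edgeR adjusted p = 0.143). With the covariate the values without inhibitor were -1.13 for Kcnk6 (adjusted p = 0.295) and -0.73 for Kcnk13 (0.409); the 12 microglia markers fell in both arms, and their part beyond this was not tested. With inhibitor Kcnk2, a stretch-sensitive channel, fell by 0.41 (SE 0.11, edgeR adjusted p = 0.0123), a call lost without inhibitor vehicle 1 (log2 fold -0.27, adjusted p = 0.0955), and without it Kcnk9 fell by 1.397 (SE 0.49, edgeR adjusted p = 0.0275), a call lost in the fits that left out DMSO vehicle 1 or DMSO acetate 2, 3 or 4 (log2 fold -1.37 to -1.13, adjusted p 0.0567 to 0.0784) and at -1.096 (adjusted p = 0.0576) without both uneven libraries. Kcnk1 was the leak channel gene with the highest level per kilobase in DMSO vehicle. It stood at 75.01, 69.8, 78.8 and 80.4 CPM in DMSO vehicle against 71.6, 74.6, 73.05 and 65.3 in DMSO acetate. Kcnk1 passed in neither arm (-0.095 and 0.20). Kcnk5, Kcnk10 and Kcnk12 also passed in neither arm, at -0.37, 0.23 and 0.47 without inhibitor and 0.34, 0.25 and -0.25 with it. Leaving out both uneven libraries, Kcnk10 had 0.40 without inhibitor (edgeR adjusted p = 4.11e-04). Its value without inhibitor was -0.63 scaled on neuronal markers (edgeR adjusted p = 2.62e-04) and 0.11 with the covariate (0.742).

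The Kcnm, Kcnn, Kcnt and Kcnu genes encode channels gated by intracellular calcium or sodium, apart from Kcnu1, which is gated by voltage and pH. Of these 7 genes 2 rose without inhibitor, a share near the 23.7% of all genes, 4 rose with it, where 14.5% did, and 0 fell, with medians of 0.34 and 0.52 (-0.49 and -0.033 scaled on neuronal markers). Kcnn1 (chr8:70842049-70863258), a small-conductance channel of the after-hyperpolarization, stood at 18.6, 9.87, 11.8 and 12.5 CPM in DMSO vehicle against 33.9, 34.1, 35.7 and 32.2 in DMSO acetate. In the inhibitor groups it stood at 11.1, 17.8 and 9.64 and 30.5, 31.7, 31.5 and 32.7. The acetate libraries formed a narrow band from 30.5 to 35.7 CPM, above each vehicle library, with the uneven vehicles highest in their groups. Kcnn1 rose by 1.36 (SE 0.18, edgeR adjusted p = 6.78e-05) and 1.300 (SE 0.20, edgeR adjusted p = 6.46e-04), and scaled on neuronal markers by 0.52 (adjusted p = 0.00117) and 0.76 (4.90e-04). With the covariate it rose by 0.60 (adjusted p = 0.0121) and 0.79 (9.19e-04).

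Its relative Kcnn3 stood at 5.15, 4.92, 3.48 and 3.79 CPM in DMSO vehicle against 4.69, 5.05, 6.09 and 5.73 in DMSO acetate, with overlap, and had 0.31 (SE 0.20, edgeR adjusted p = 0.224). With inhibitor it went from 2.303, 4.15 and 1.97 to 6.83, 5.37, 5.703 and 6.07 CPM without overlap and rose by 1.101 (SE 0.23, edgeR adjusted p = 0.00326). Kcnn2 passed in neither arm, at 0.33 (SE 0.21, edgeR adjusted p = 0.201) and -0.22 (SE 0.23, edgeR adjusted p = 0.48). Once both uneven libraries were left out, it was 0.67 without inhibitor (edgeR adjusted p = 8.16e-05). Scaled on neuronal markers Kcnn2 had -0.49 and -0.78 (edgeR adjusted p = 0.0174 and 0.00281). With the covariate it had -0.25 and -0.66 (edgeR adjusted p = 0.539 and 0.0668). The sodium-activated channel Kcnt1 rose by 0.60 (SE 0.11, edgeR adjusted p = 4.30e-04) and 0.47 (SE 0.12, edgeR adjusted p = 0.00723). Kcnma1, the pore of the large-conductance BK channel, stood at 13.4, 12.6, 10.8 and 9.68 CPM in DMSO vehicle, at 14.8, 14.5, 17.2 and 18.4 in DMSO acetate, 8.86, 18.002 and 9.61 in inhibitor vehicle and 22.8, 15.7, 18.4 and 20.1 in inhibitor acetate. It had 0.48 (SE 0.19, edgeR adjusted p = 0.0522) and rose by 0.66 with inhibitor (SE 0.21, edgeR adjusted p = 0.0257), a call lost in the fits that left out inhibitor vehicle 1 or 3 or inhibitor acetate 1 or 4 (log2 fold 0.49 to 0.64, adjusted p 0.0529 to 0.128) but 1.06 without inhibitor vehicle 2 alone (adjusted p = 1.63e-04). Kcnma1 had, without both uneven libraries, 0.55 (adjusted p = 0.00128) and 1.06 (adjusted p = 1.35e-05). Its values scaled on neuronal markers were -0.40 and 0.14, and with the covariate -0.28 and 0.20. Its brain subunit Kcnmb4 had 0.22 (SE 0.088, edgeR adjusted p = 0.0464) without inhibitor, a rise that passed narrowly and was lost in the fits that left out DMSO vehicle 2, 3 or 4 or DMSO acetate 1 or 2 or inhibitor vehicle 1 or 3 or inhibitor acetate 1, 2, 3 or 4 (log2 fold 0.14 to 0.23, adjusted p 0.0509 to 0.181, with 0.14 without DMSO acetate 2), and 0.043 (SE 0.10) with it. Kcnt2 and Kcnu1 passed in neither arm, with log2 folds of 0.17 and 0.34 without inhibitor and 0.52 and 0.20 with it.

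Of the auxiliary subunits 6 of 11 rose and 1 fell without inhibitor (23.7% and 27.5% of all genes). With it 3 rose and 1 fell (14.5% and 20.6%). Medians were 0.32 and 0.15 (-0.60 and -0.37 scaled on neuronal markers). Scaled that way 0 rose and 6 fell without inhibitor (0.922% and 87.7% of all genes), and 0 and 4 did with it (0.962% and 67.4%). The 1 fall in each arm before that scaling was that of Kcne1l (chrX:142304752-142306294). It stood at 80.5, 69.7, 65.5 and 68.9 CPM in DMSO vehicle, at 22.7, 25.8, 24.4 and 27.6 in DMSO acetate, 42.8, 28.5 and 52.9 in inhibitor vehicle and 16.1, 14.4, 16.97 and 13.7 in inhibitor acetate. Acetate libraries lay below the vehicle libraries of their arm in every case, and inhibitor libraries below the DMSO libraries of the same medium. With acetate Kcne1l fell by 1.504 (SE 0.15, edgeR adjusted p = 8.10e-06) and 1.44 (SE 0.16, edgeR adjusted p = 6.76e-05), and with the covariate by 1.15 (adjusted p = 9.05e-04) and 1.15 (4.75e-04). Kcnab2, the main beta subunit of brain Kv1 channels, stood at 234, 123, 160.02 and 158 CPM in DMSO vehicle against 369, 373, 310.5 and 311 in DMSO acetate, without overlap. It rose by 1.02 (SE 0.18, edgeR adjusted p = 4.91e-04) and with inhibitor by 0.68 (SE 0.20, edgeR adjusted p = 0.0172), the latter lost without inhibitor vehicle 1 (log2 fold 0.63, adjusted p = 0.068) or inhibitor vehicle 3 (log2 fold 0.51, adjusted p = 0.0841). Kcnab3 rose by 0.69 (SE 0.13, edgeR adjusted p = 5.80e-04) and 0.60 (SE 0.14, edgeR adjusted p = 0.00541), and Kcnab1 did not pass at -0.44 and -0.20. Scaled on neuronal markers Kcnab2 had 0.16 and 0.14 and Kcnab3 -0.22 and -0.0057, none past the threshold. The faint Kcne2 and Kcnmb2 passed in neither arm. Among the other transcripts the imprinted antisense RNA Kcnq1ot1 rose by 0.998 (SE 0.20, edgeR adjusted p = 8.80e-04) and 0.64 (SE 0.21, edgeR adjusted p = 0.0319). The latter call was lost in the fits that left out inhibitor vehicle 1 or 3 or inhibitor acetate 4. Those fits had log2 folds of 0.41 to 0.54 (edgeR adjusted p 0.102 to 0.144), with 0.41 without inhibitor acetate 4. Scaled on neuronal markers Kcnq1ot1 had 0.11 and 0.084 (edgeR adjusted p = 0.586 and 0.721). With the covariate it had 0.52 and 0.34 (edgeR adjusted p = 0.212 and 0.341). Kcnrg, a soluble regulator of Kv assembly, rose by 1.03 (SE 0.38, edgeR adjusted p = 0.0337), a call lost in the fits that left out DMSO vehicle 1, 3 or 4 or DMSO acetate 1 or 2 (log2 fold 0.76 to 0.997, adjusted p 0.0554 to 0.0994) and at 1.01 (adjusted p = 0.0422) without both uneven libraries, and the antisense transcripts Kcnd3os and Kcnmb4os2 passed in neither arm.

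**Figure D3:**
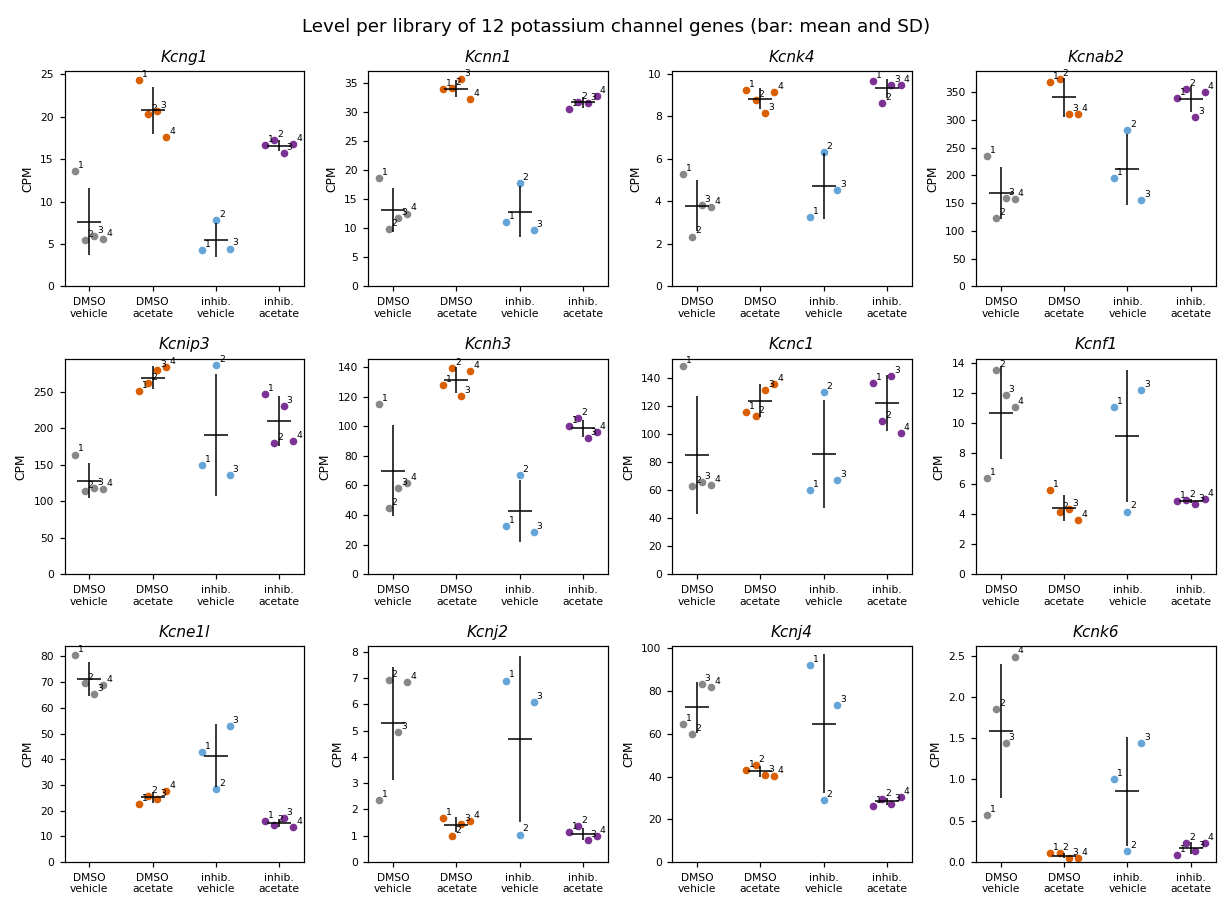
Level in CPM of 12 potassium channel genes in each of 15 libraries, numbered by replicate, with the group mean and SD as bars; every axis starts at 0. In Kcnn1, Kcng1 and Kcnk4 the acetate libraries lie above the vehicle libraries of their arm, in Kcne1l below them, and DMSO vehicle 1 and inhibitor vehicle 2 sit nearest the acetate groups in Kcnc1, Kcnf1 and Kcnj2.

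Whether the inhibitor altered the acetate response was tested as the difference of the log2 folds, with inhibitor minus without. By edgeR 0 members differed in either direction, where 0.0133% of all genes were called higher and 0.00663% lower, and DESeq2 called 0 and 1 (background 1.57% and 4.21%). At an unadjusted p under 0.05 edgeR had 2 members higher and 8 lower, 2.78% and 11.1% of members, beside 7.83% and 12.8% of all genes. The 3 smallest p were those of Kcnip3, Kcng2 and Kcnn3. For Kcnip3 the inhibitor groups held 149, 286 and 135 and 247, 179, 230.2 and 183 CPM, with inhibitor vehicle 2 above every acetate library. The acetate fold there was 0.14 (SE 0.21), or 0.56 (edgeR adjusted p = 4.70e-04) without both uneven libraries. With the covariate it was -0.39 (edgeR adjusted p = 0.0332), and scaled on neuronal markers -0.37 (0.0578). The difference was -0.93 (SE 0.29, edgeR adjusted p = 0.0967); DESeq2 called it (adjusted p = 0.0334), and without both uneven libraries it was -0.65 (adjusted p = 0.0272). For Kcng2 the difference was -0.72 (SE 0.24, edgeR adjusted p = 0.108) and for Kcnn3 0.79 (SE 0.31, edgeR adjusted p = 0.161). Without both uneven libraries 2 members were called higher and 6 lower, where 1.56% and 2.74% of all genes were, and with the covariate 3 and 1 (1.74% and 3.83%). A p above the threshold does not show that the responses were equal.

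In the comparisons of inhibitor with DMSO the calls varied with the setting. In vehicle medium 2 rose and 2 fell, where 3.47% and 1.99% of all genes were called; in acetate medium 2 rose and 4 fell, where 2.36% and 3.42% were. With the covariate 7 rose and 11 fell in vehicle medium (background 8.03% and 7.04%) and 6 and 9 in acetate medium (5.72% and 9.19%). Without both uneven libraries 3 rose and 4 fell in vehicle medium (2.71% and 2.60%) and 6 and 11 in acetate medium (6.89% and 10.7%). These comparisons share libraries with the acetate comparisons. With a single library left out, 0 to 5 rose and 1 to 4 fell in vehicle medium. Of all genes 134 to 1000 rose and 60 to 630 fell there. In acetate medium 0 to 4 rose and 1 to 6 fell (97 to 598 and 90 to 883 of all genes). The calls in vehicle medium moved most without inhibitor vehicle 1 (0 and 1), 2 (4 fell) or 3 (5 rose) or DMSO vehicle 2 (0 rose). In acetate medium no rise was called without any of the 4 inhibitor acetate libraries or DMSO acetate 2, 3 or 4, and 1 or 2 falls were called without DMSO acetate 2 or inhibitor acetate 1 or 3. Kcna1 fell with inhibitor in both media. In the inhibitor groups it stood at 64.9, 55.5 and 67.2 CPM in vehicle and 55.98, 59.9, 54.2 and 65.7 in acetate medium, each library below every DMSO library of the same medium. Kcna1 fell by 0.71 in vehicle (SE 0.10, edgeR adjusted p = 0.00563) and 0.54 in acetate medium (SE 0.10, edgeR adjusted p = 0.00784), and no left-out library ended either call. Without both uneven libraries the values were -0.55 and -0.53, both past the threshold; scaled on neuronal markers the second was -0.40 (adjusted p = 0.221).

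Kcne1l fell by 0.78 (SE 0.16, edgeR adjusted p = 0.0173) and 0.71 (SE 0.15, edgeR adjusted p = 0.0155). The first call was lost without inhibitor vehicle 1 (log2 fold -0.80, adjusted p = 0.0501) and the second without DMSO acetate 2 (log2 fold -0.70, adjusted p = 0.0547); without both uneven libraries the first was -0.51 (adjusted p = 0.0121). Kcnt1 stood at 19.4, 21.3, 24.7 and 26.1 CPM in DMSO vehicle and 37.4, 31.4 and 31.5 in inhibitor vehicle, and at 41.6, 33.2, 31.4 and 32.7 and 45.3, 46.1, 45.2 and 48.3 in the acetate groups, with no overlap between inhibitor and DMSO in either medium. It rose by 0.55 (SE 0.11, edgeR adjusted p = 0.0188) and 0.41 (SE 0.11, edgeR adjusted p = 0.0351). The first call was lost without DMSO vehicle 2 (log2 fold 0.51, adjusted p = 0.0578) or inhibitor vehicle 1 (log2 fold 0.46, adjusted p = 0.074) and the second in the fits that left out DMSO acetate 2, 3 or 4 or inhibitor acetate 1, 2, 3 or 4 (log2 fold 0.37 to 0.43, adjusted p 0.0705 to 0.12).

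Kcnd1 rose in vehicle medium by 0.47 (SE 0.12, edgeR adjusted p = 0.0342), a call lost in the fits that left out DMSO vehicle 1 or 2 or inhibitor vehicle 1 or 2 (log2 fold 0.29 to 0.54, adjusted p 0.0521 to 0.117, with 0.29 without inhibitor vehicle 2) and without both uneven libraries (0.28, adjusted p = 0.131). In acetate medium Kcna4 stood at 13.6, 13.996, 13.1 and 14.1 CPM with DMSO and 7.23, 6.38, 6.68 and 8.95 with inhibitor and fell by 0.90 (SE 0.21, edgeR adjusted p = 0.0255); the call was lost in the fits that left out DMSO acetate 2, 3 or 4 or inhibitor acetate 1, 2 or 3 (log2 fold -0.93 to -0.84, adjusted p 0.0513 to 0.0865). Kcnk3 went from 40.4, 47.6, 39.9 and 38.5 to 26.6, 31.4, 23.97 and 32.8 CPM and fell by 0.54 (SE 0.11, edgeR adjusted p = 0.0171), a call lost in the fits that left out DMSO acetate 2 or inhibitor acetate 1 or 3 (log2 fold -0.50 to -0.45, adjusted p 0.0531 to 0.0719). Kcns2 went from 3.63, 3.84, 2.997 and 3.84 to 5.83, 5.56, 5.42 and 5.53 CPM, the groups apart, and rose by 0.64 (SE 0.18, edgeR adjusted p = 0.0482), a call lost in the fits that left out DMSO vehicle 3 or 4 or DMSO acetate 1, 2, 3 or 4 or inhibitor vehicle 1 or inhibitor acetate 1, 2, 3 or 4 (log2 fold 0.57 to 0.68, adjusted p 0.0537 to 0.125). On the neuronal-marker scaling these 6 acetate-medium calls missed the threshold, though the folds kept their direction: 0.79 for Kcns2, 0.56 for Kcnt1, -0.76 for Kcna4, -0.40 for Kcnk3, -0.57 for Kcne1l and -0.40 for Kcna1 (adjusted p from 0.152 to 0.298). In vehicle medium on that scaling Kcna1 passed at -0.85 (adjusted p = 0.0359), and Kcne1l had -0.89 (0.0814), Kcnt1 0.37 (0.323) and Kcnd1 0.28 (0.351).

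**Figure D4:**
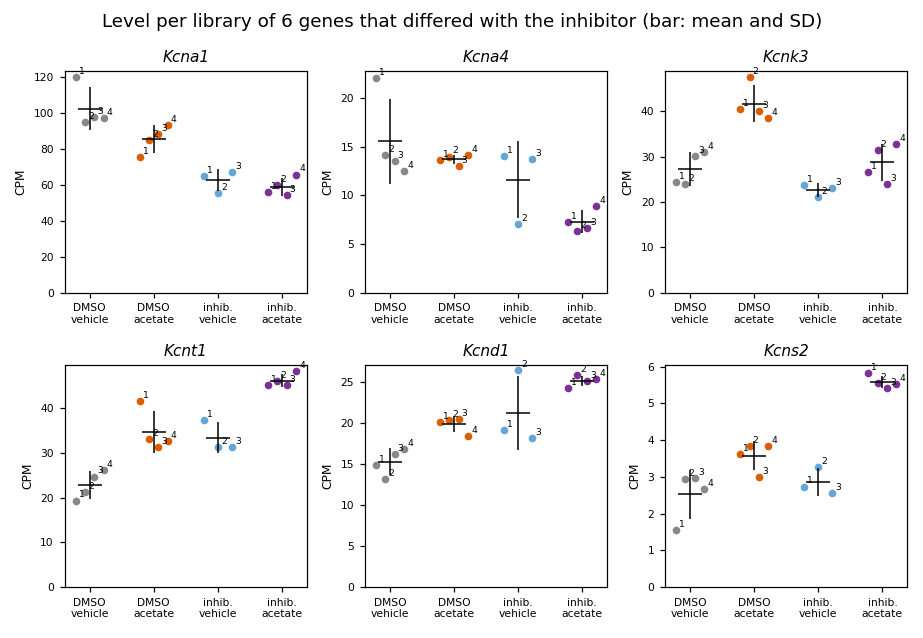
Level in CPM of 6 potassium channel genes in each of 15 libraries, numbered by replicate, with the group mean and SD as bars; every axis starts at 0. Kcna1 lies at 54.2 to 67.2 CPM in the 7 inhibitor libraries and at 75.5 or above in the 8 DMSO libraries, and Kcnt1 is higher with inhibitor in both media.

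Subunits that assemble together were also compared within each library, where a ratio of counts does not depend on library scaling but shows only unequal change. The log2 ratio of Kcnab2 to Kcna1 counts was 0.69 ± 0.24 (SD, n = 4) in DMSO vehicle against 1.99 ± 0.26 (n = 4) in DMSO acetate. It was 1.72 ± 0.57 (n = 3) and 2.52 ± 0.084 (n = 4) with inhibitor, so the acetate libraries lay above the vehicle libraries of their arm in both. Kcna1 to Kcna2 was 1.296, 1.12, 1.16 and 1.21 in DMSO vehicle against 0.42, 0.40, 0.45 and 0.38 in DMSO acetate, tight and apart. In the inhibitor groups the same ratio was 0.56, -0.54 and 0.62 and -0.10, 0.23, -0.19 and 0.13, where inhibitor vehicle 2 lay lowest of all.

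Among the G protein-gated rectifiers Kcnj9 to Kcnj3 was -0.17 ± 0.26 in DMSO vehicle against -0.85 ± 0.21 in DMSO acetate, and with inhibitor -0.22 ± 0.18 and -0.49 ± 0.23, and the last 2 groups overlapped. Kcnip2 to Kcnd2 stayed between 1.44 and 2.34 in the 15 libraries, with the groups overlapping. These ratios were not tested.

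**Figure D5:**
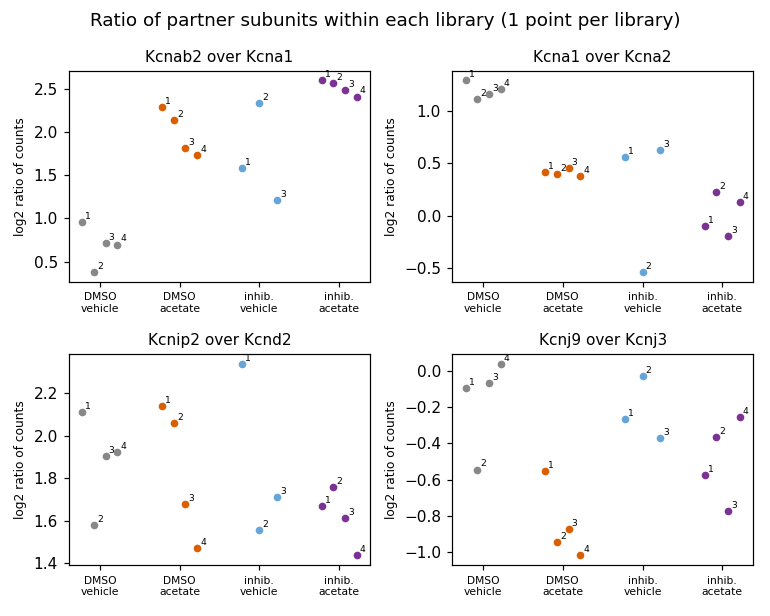
Log2 ratio of counts of 4 pairs of subunits that assemble together, 1 point per library, numbered by replicate; axes do not start at 0. Kcna1 over Kcna2 lies at 1.12 to 1.30 in DMSO vehicle and 0.38 to 0.45 in DMSO acetate, while Kcnip2 over Kcnd2 overlaps between all groups.

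A list of 32 channel partners (further subunits, scaffolds and the GABA-B route to Kcnj channels) had 28 tested genes. With acetate 12 rose and 2 fell without inhibitor and 9 rose and 2 fell with it, beside 23.7% and 27.5%, and 14.5% and 20.6%, of all genes, with medians of 0.16 and 0.18. By the neuronal-marker scaling 0 rose and 25 fell without inhibitor (0.922% and 87.7% of all genes). With it 2 rose and 18 fell (0.962% and 67.4%), and the medians were -0.73 and -0.40. With the covariate 1 rose and 0 fell without inhibitor (7.98% and 6.46% of all genes). In the presence of the inhibitor 2 rose and 1 fell there (5.29% and 6.85%). Dlg4, the scaffold PSD-95 that clusters Kv1 and Kcnj channels, rose by 0.83 (SE 0.12, edgeR adjusted p = 1.25e-04) and 0.38 (SE 0.13, edgeR adjusted p = 0.0392). Calm3, a calmodulin gene whose protein serves Kcnq and Kcnn channels, rose by 0.94 (SE 0.15, edgeR adjusted p = 2.00e-04) and 0.76 (SE 0.16, edgeR adjusted p = 0.00336). Cntn2, which holds Kv1 channels beside the nodes of Ranvier, rose by 0.95 (SE 0.18, edgeR adjusted p = 6.48e-04) and 1.14 (SE 0.20, edgeR adjusted p = 0.00118). The scaffold gene Dlg3 rose by 0.44 (SE 0.071, edgeR adjusted p = 2.11e-04) and 0.44 (SE 0.077, edgeR adjusted p = 0.00118). Dpp10, which speeds Kv4 gating, rose by 0.48 (SE 0.15, edgeR adjusted p = 0.0132) and 0.76 (SE 0.16, edgeR adjusted p = 0.00352). A relative of Dlg3, Dlg1, fell by 0.84 (SE 0.14, edgeR adjusted p = 2.66e-04) and 0.55 (SE 0.15, edgeR adjusted p = 0.0106).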

How the data were processed

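RNA was sequenced from 15 libraries of mouse hippocampal neurons. The authors deposited 1 table of raw counts per gene; STAR 2.5.2a, HTSeq 0.6.1p1, DESeq2 and mm10 are named in the submitters' processing notes, and the sources used here name neither the annotation nor the strand setting. Lines of the HTSeq summary, 38.92% to 47.43% of a library, were left out. Genes were kept by filterByExpr and tested with edgeR 4.0.16 (limma 3.58.1, R 4.3.3): TMM scaling, glmQLFit with 1 mean per group over all libraries, glmQLFTest, and Benjamini-Hochberg adjustment over 15075 genes at 0.05. SE is the log2 fold divided by the root of F. The biological coefficient of variation was 16.8%. Alternatives were DESeq2 1.42.0, its size factors in edgeR, no filter on low counts, scaling on neuronal markers, a non-neuronal marker score as a covariate, a replicate block, leaving out each library and leaving out both uneven vehicle libraries. The scripts were tested on simulated data. No replicates looked like 1 library deposited more than once (chi-square per gene 4.65 to 144 over 21 pairs).

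Members and lists were chosen with earlier results of these data known. Results of 4 members are not reported here one by one; they stay in the counts and medians. Any other member could be named; full statistics went to a list of 31 central genes, up to 8 highest and 8 lowest folds among the calls of each acetate comparison, and each call of the other comparisons or else the 3 smallest p, with up to 4 channel partners per acetate comparison. Counts ranged from 19688231 to 39234799 per library, and their number limits the precision of faint genes. Gene positions and sequences come from GENCODE M21 (GRCm38). Overlapping genes may share reads: Kcna6 and Gm26673, Kcnj3 and Gm26794, Kcnmb4 and Kcnmb4os2, Kcnh7 and Gca, Kcnk4 and Catsperz, and Kcnab2 and Gm16334.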

Additional observations from a re-analysis of the deposited data

Results flagged for a closer look

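Of 204 sets of 4 libraries (68 members in 3 groups), 15 held a library whose gap to its nearest neighbour exceeded Dixon's 95% critical share of the group's range, where chance flags about 1 in 20. The library was DMSO vehicle 1 in 10 of them. In CPM, and against the other 3 libraries of its group, it had Kcna1 at 120.1 against 94.7 to 97.6, Kcna6 at 64.4 against 98.1 to 104, Kcnc1 at 148 against 63.1 to 65.6, Kcng1 at 13.6 against 5.44 to 5.89 and Kcnip3 at 164 against 114 to 119. It also had Kcnk10 at 51.05 against 34.1 to 34.8, Kcnk5 at 5.64 against 1.99 to 2.502, Kcnn2 at 42.7 against 20.2 to 21.2, Kcnq5 at 29.7 against 15.5 to 16.9 and Kcnv1 at 6.96 against 2.595 to 3.25. Of these, Kcna6 alone was lower than the rest of the group.

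In other libraries the flags were Kcna5 in DMSO acetate 3 at 0.702 CPM against 0.2703 to 0.305, Kcnab3 in inhibitor acetate 4 at 8.55 CPM against 7.36 to 7.44, Kcnb2 in inhibitor acetate 4 at 4.23 CPM against 3.26 to 3.38, Kcng2 in DMSO vehicle 2 at 8.47 CPM against 14.97 to 16.03 and Kcnj12 in DMSO acetate 2 at 9.75 CPM against 8.22 to 8.46.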

How the results depend on the processing

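Counts of members are given as raised and lowered. Scaled on pan-neuronal markers they were 2 and 41 for acetate without inhibitor (0.922% and 87.7% of all genes). Those with it were 4 and 27 (0.962% and 67.4%). For the inhibitor 0 were raised in vehicle medium (19 of 15075 genes), with 0 and 0 in acetate medium (49 and 11 genes). With the non-neuronal covariate they were 13 and 5 without inhibitor (7.98% and 6.46% of all genes) and 15 and 4 with it (5.29% and 6.85%). For the difference of responses they were 3 and 1 (1.74% and 3.83%). For the inhibitor they were 7 and 11 in vehicle (8.03% and 7.04%) and 6 and 9 in acetate medium (5.72% and 9.19%). Without both uneven vehicle libraries they were 2 and 6 for the difference (1.56% and 2.74% of all genes). The inhibitor then had 4 lowered in vehicle (2.60%), and 6 and 11 in acetate medium (6.89% and 10.7%). DESeq2 gave 1 lowered for the difference (4.21% of all genes) and 5 raised for the inhibitor in vehicle (923 of 15074 genes). Testing all genes with no filter on low counts gave 1 raised for the inhibitor in acetate medium (275 of 19975 genes). With each library left out in turn, 24 to 33 were raised and 8 to 13 lowered for acetate without inhibitor. Over all genes 3010 to 3855 and 3547 to 4500 were. With inhibitor the counts ran from 16 to 28 and 4 to 11 (1245 to 2894 and 1877 to 3616 genes). For the difference they ran from 0 to 0 and 0 to 1 (2 to 260 and 0 to 745 genes). For the inhibitor in vehicle they ran from 0 to 5 and 1 to 4 (134 to 1000 and 60 to 630). In acetate medium they ran from 0 to 4 and 1 to 6 (97 to 598 and 90 to 883). The cause of these shifts was not tested.

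The replicate numbers did not pair the libraries: 6 of 21 same-number pairs correlated above 0.1 in their deviations, with a range from -0.652 to 0.38, and 2 libraries correlated best with their own number. With a replicate block the counts for acetate were 27 and 12 without inhibitor (3384 and 3895 of 15075 genes). With inhibitor they were 19 and 8 (1908 and 2616 genes). In acetate medium 0 members were raised by the inhibitor (234 genes).

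Scaled on neuronal markers, the log2 folds of 38 of 72 members without inhibitor and 31 with it turned sign; with the covariate 21 and 15 did. The ones listed were past the threshold on at least 1 side of the change. Scaled on neuronal markers they were, without inhibitor, Kcna2 -0.35, Kcna6 -0.80, Kcnab3 -0.22, Kcnb2 -0.34, Kcnc2 -0.19, Kcnc4 -0.55, Kcnd1 -0.52, Kcnd2 -0.15, Kcnh1 -0.87, Kcnh2 -0.35, Kcnip1 -0.58, Kcnip2 -0.20, Kcnj3 -0.58, Kcnj6 -0.83, Kcnk10 -0.63, Kcnk3 -0.30, Kcnmb2 -0.80, Kcnmb4 -0.67, Kcnmb4os2 -0.64, Kcnn2 -0.49, Kcnn3 -0.56, Kcnq5 -0.19, Kcns1 -0.59, Kcns2 -0.44, Kcnt1 -0.31, Kcnt2 -0.76 and Kcnu1 -0.57. With inhibitor they were Kcna2 -0.47, Kcnab3 -0.0057, Kcnc2 -0.055, Kcnd3 -0.50, Kcnh2 -0.23, Kcnip1 -0.58, Kcnip2 -0.23, Kcnj6 -0.47, Kcnk1 -0.39, Kcnk10 -0.35, Kcnk3 -0.26, Kcnmb4 -0.53 and Kcnt1 -0.12. With the covariate those without inhibitor were Kcna2 -0.13, Kcna5 1.43, Kcnf1 0.12, Kcnh3 -0.19, Kcnj2 0.48, Kcnj4 0.22 and Kcnq5 -0.10, and with inhibitor Kcna2 -0.35, Kcnf1 0.17, Kcnip3 -0.39 and Kcnk6 0.25.

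Members with few counts, such as Kcnk6, Kcna5 and Kcnk9, are limited by depth, and gene-level counts do not separate splice forms or channels on the membrane.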
